A study of Mus musculus with 46 samples.

Results

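Mouse extended pluripotent stem cells (EPSCs) that had been cultured in a primitive endoderm induction medium were compared with EPSCs that had not, in the libraries taken at the 0 h point of an actinomycin D time course. The comparison uses 4 of the 46 libraries of the series: 2 labelled EPS_0h (cell type EPSC) and 2 labelled PrEdiff_0h (the induced cells), and it covers all genes in the table. Actinomycin D blocks transcription, and it is the labelled treatment of all 4 libraries, at a time of 0 h. The labels give no strain, genotype, line, length of culture or medium composition, and do not say that replicates came from separate cultures, so the p-values cover no more than how far apart these libraries are, and that distance may be technical. Later time points of the course stayed out of the contrast. Those at 1 h, and the sorted CD140+ (PrE-E) and CD140- (EPI-E) fractions of induced cultures, 2 libraries each, were read as separate measurements of the same genes. CD140 is the antigen name of the PDGF receptors, and the fractions come from cells in the same kind of medium, without actinomycin D in their labels.

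Primitive endoderm is the epithelium that separates from the epiblast inside the blastocyst and goes on to form the visceral and parietal endoderm of the yolk sac. Its founding cells express the transcription factors Gata6, Gata4, Sox17 and Sox7, while epiblast cells keep Nanog, Sox2 and a high level of Pou5f1. FGF4 made by epiblast cells and sensed by FGF receptors drives the choice, and the new epithelium lays down a basement membrane of laminin and type IV collagen. EPSCs are stem cells kept in a medium that widens the range of tissues they can form, including the extraembryonic ones.

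The induced cells differed from EPSCs in most of the measured transcriptome. Of 14127 genes tested, 11376 passed an adjusted p of 0.05 (80.5%) in edgeR's quasi-likelihood test with Benjamini-Hochberg adjustment, 5310 rising (37.6%) and 6066 falling (42.9%). With a minimum change of 1 log2 unit, 3828 genes passed (27.1%), and the rises were then more frequent, with 2329 genes up (16.5%) and 1499 down (10.6%). The median gene changed by -0.049 log2 units, and the middle 50% of genes lay between -0.54 and 0.60. These values use TMM scaling. Scaling to library totals alone moved the median gene to 0.13 and gave 6548 rises and 4793 falls, so that rises made up 57.7% of the calls and not 46.7%. With the 1 log2 minimum that scaling gave 2810 rises and 1089 falls, 72.1% of calls rising against 60.8%. Small changes below are therefore relative to the scaling. Library totals were 19042159 and 19718779 counts in EPS_0h and 14927080 and 15264843 in PrEdiff_0h. Replicates differed by little more than counting noise (chi-square per degree of freedom 1.19 and 1.21). For 12664 of the 14127 genes (89.6%) the CPM ranges of the groups did not overlap, and a lack of overlap in a single gene carries little weight here. Below, CPM means the count scaled to library size with TMM factors, in the usual CPM unit, a change is PrEdiff_0h minus EPS_0h in log2 units ± SE, n = 2 libraries per group, and "rose" and "fell" are used only where the adjusted p was under 0.05. All libraries are bulk RNA, in which fewer cells of a type and less RNA per cell cannot be told apart.

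The primitive endoderm transcription factors rose almost as a group. Of 12 listed, all tested, 11 rose and 1 fell, with a median of 3.94 log2 units beside -0.049 over all genes. Gata6, the zinc finger factor that opens the endoderm program, was at 4.36 and 4.44 CPM in EPS_0h and 119 and 125 in PrEdiff_0h, a rise of 4.76 ± 0.066 (adjusted p = 1.02e-204). Its partner Gata4 went from 2.75 and 3.38 to 148 and 145 CPM, a rise of 5.52 ± 0.068. Sox17, an SRY-box factor of definitive and primitive endoderm, went from 1.28 and 1.51 to 33.4 and 32.4 CPM (4.45 ± 0.12). All 3 were low but above the counting floor of 3 counts (0.137 to 0.160 CPM) in both EPS_0h libraries, and the groups were far apart. Sox7, which follows the GATA factors in endoderm, had the largest rise of the list, from 1.52 and 1.88 to 92.1 and 85.9 CPM (5.62 ± 0.090). Foxa2 rose by 3.70 ± 0.25 and Hnf4a, the master factor of later visceral endoderm, by 2.56 ± 0.29, both at low levels: Foxa2 reached 6.56 and 5.17 CPM and Hnf4a 2.72 and 3.03. Foxq1 (3.69 ± 0.12), Tfec (4.18 ± 0.27), Tcf23 (2.34 ± 0.19) and Cited1 (2.01 ± 0.17) rose as well. Eomes, the T-box factor of early endoderm and trophoblast, stood apart: it went from 15.2 and 15.4 to 12.6 and 11.8 CPM, a change of -0.33 ± 0.089 with TMM that did not pass with library totals (-0.15, edgeR adjusted p = 0.114).

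Cell surface genes of primitive endoderm followed the same pattern. All 8 of the 8 tested genes of this list rose, with a median of 4.36; Fxyd3, the ninth listed, had too few counts to test. Pdgfra, the PDGF receptor by which primitive endoderm cells are commonly sorted, was at 7.07 and 5.99 CPM in EPS_0h and 212 and 210.5 in PrEdiff_0h (4.99 ± 0.055). Cubn encodes cubilin, the large uptake receptor of absorptive endoderm, and it went from 6.26 and 5.72 to 378 and 366 CPM (5.93 ± 0.048, adjusted p = 5.27e-276). The proteins that work with cubilin moved by different amounts. Dab2, the endocytic adaptor, went from 5.69 and 7.59 to 106 and 106 CPM (3.98 ± 0.063), Amn, the membrane anchor of cubilin, rose by 2.31 ± 0.14 to 10.5 and 11.7 CPM, and Lrp2, the megalin receptor, rose by 1.93 ± 0.063. The water channel Aqp8 (5.25 ± 0.086), the chloride channel protein Clic6 (4.74 ± 0.22) and the lysosomal protease Lgmn (2.65 ± 0.038) completed the list. Summed over its 9 genes, the list made 71.2 and 70.4 CPM in EPS_0h and 1054 and 1053 CPM in PrEdiff_0h. The factor and receptor lists, the markers of the labelled identity, were thus higher in PrEdiff_0h than in EPS_0h, apart from Eomes. In the sorted PrE-E fraction, scaled in its own table, the summed receptor list made 16022 and 16311 CPM. The summed factor list made 1177 and 1187 CPM there, beside 490 and 484 in PrEdiff_0h.

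**Figure D1:**
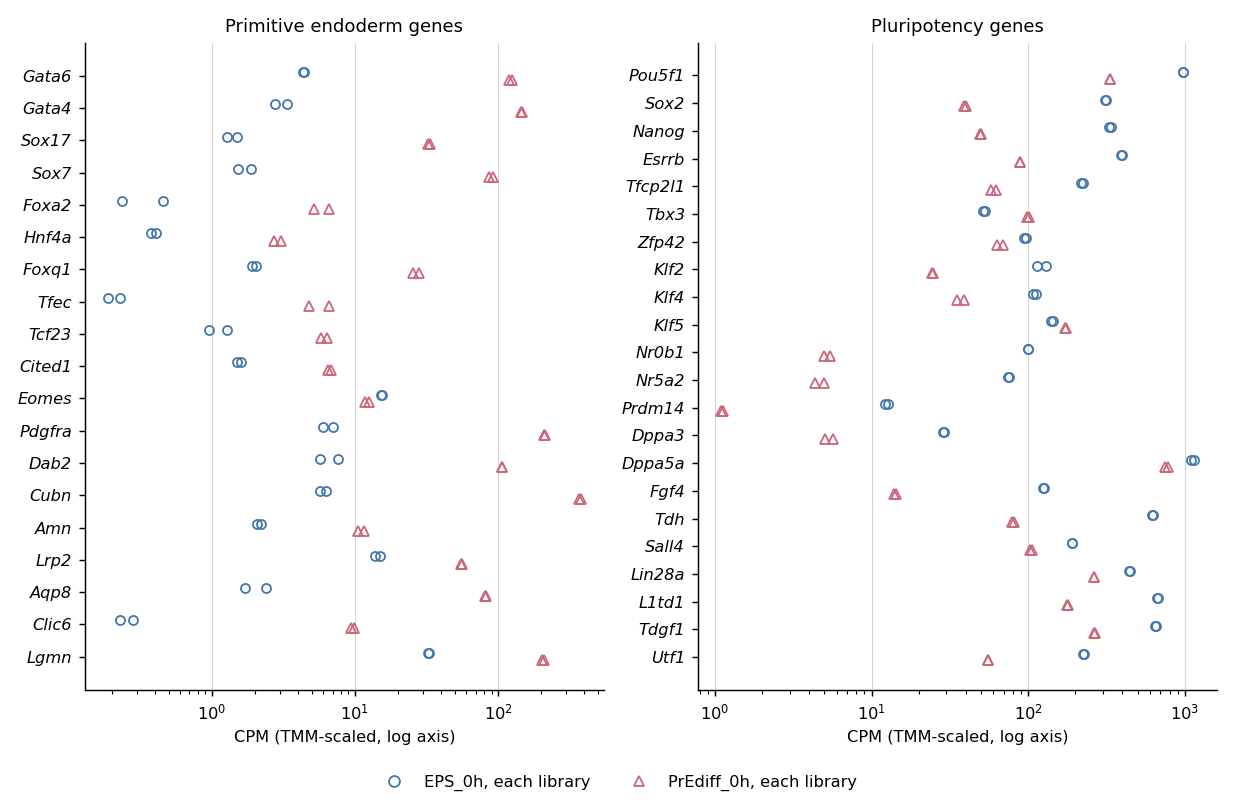
Level of each gene in each of the 4 libraries, in TMM-scaled CPM on a log axis, with open circles for EPS_0h and open triangles for PrEdiff_0h. Replicates nearly coincide, and every primitive endoderm gene shown but Eomes lies to the right in PrEdiff_0h, while every pluripotency gene shown but Tbx3 and Klf5 lies to the left.

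Basement membrane genes rose as well. Of 14 tested, 13 rose and 1 fell, with a median of 2.43. Lama1, the laminin chain of the first embryonic basement membranes, was at 35.01 and 36.9 CPM in EPS_0h and 1119 and 1114 in PrEdiff_0h (4.95 ± 0.029). The other chains of the same trimer, Lamb1 (3.47 ± 0.025) and Lamc1 (2.31 ± 0.022), and the type IV collagen chains Col4a1, from 68.4 and 68.4 to 936 and 930.3 CPM (3.77 ± 0.027), and Col4a2 (3.84 ± 0.032) rose too. The enzymes that mature collagen rose in the same range: the prolyl hydroxylases P4ha1 (4.02 ± 0.038) and P4ha2 (4.18 ± 0.053), the lysyl hydroxylase Plod2 (2.56 ± 0.033) and the collagen chaperone Serpinh1 (1.84 ± 0.023). The linker proteins differed from each other: Nid1 rose by 1.07 ± 0.035, Hspg2 (perlecan) by 1.54 ± 0.026, and Nid2 went from 177 and 178 to 131 and 132 CPM, a change of -0.43 ± 0.030. Lama5, a chain of other laminins, rose by 0.22 ± 0.030.

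The later derivatives were represented unequally. Of the visceral endoderm list, 10 of 14 genes could be tested; 4 rose, 5 fell and the median was -0.31, which turned to 0.57 when all 14 were fitted with no low-count filter. Of its 14 genes, 3 had at most 3 counts in every library, all of them genes of secreted products. Ttr had 0 and 0 counts in EPS_0h and 2 and 1 in PrEdiff_0h. Afp had 0 and 0 against 3 and 0, and Apoa4 had 0 and 0 against 1 and 1. Other secreted products of the list, such as Apom and Apoe below, had more counts. The risers of the list were low: Apom, an apolipoprotein, reached 4.11 and 4.65 CPM (2.35 ± 0.22), Rbp4, the retinol carrier, 2.72 and 2.87 (1.27 ± 0.23) and Spink1 2.19 and 2.25 (1.37 ± 0.26). Ihh reached 1.17 and 0.940 CPM (1.02 ± 0.35), and its call did not hold in DESeq2 (adjusted p = 0.0870) or without EPS_0h replicate 2 (edgeR adjusted p = 0.188) or PrEdiff_0h replicate 1 (0.0665). Dpp4, a peptidase of the apical membrane, fell by 1.10. Apoe, a lipid carrier gene expressed in many cell types, went from 519 and 534 to 471 and 482 CPM with TMM (-0.14 ± 0.022), and its sign turned with library totals (0.035, edgeR adjusted p = 0.123). The parietal endoderm list gave 6 rises and 2 falls among 8 genes, with a median of 2.91. Pth1r, the parathyroid hormone receptor through which parietal endoderm is induced, went from 2.37 and 2.79 to 57.8 and 60.5 CPM (4.46 ± 0.091). Srgn, the serglycin core protein, went from 6.45 and 7.32 to 246 and 263 CPM (5.18 ± 0.051). Snai1 (2.99 ± 0.12), Plat (2.84 ± 0.11) and Thbd (2.35 ± 0.19) rose as well. The filament gene Vim, usually high in parietal cells, went the other way, from 316 and 312 to 139.6 and 138 CPM (-1.18 ± 0.026), and so did Fst, the activin antagonist follistatin, from 16.9 and 18.2 to 1.28 and 0.888 CPM (-3.89 ± 0.15). In the anterior visceral endoderm list 3 of 6 tested genes rose and 3 fell: the WNT antagonist Dkk1 rose by 2.75 ± 0.19 and Sfrp5 by 4.19 ± 0.25, while Hhex fell by 0.52 and Otx2 by 3.10.

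Simple-epithelium keratins rose while the adhesion genes Cdh1 and Epcam fell by small amounts. Among 10 epithelial genes 7 rose and 2 fell (median 1.12). Krt19 was at 0.806 and 0.686 CPM in EPS_0h and 58.0 and 57.5 in PrEdiff_0h (6.08 ± 0.11). Krt8 went from 8.11 and 7.73 to 128 and 127 CPM (3.99 ± 0.059), and its filament partner Krt18 from 7.64 and 7.82 to 155 and 150.4 (4.28 ± 0.056). The tight junction genes Cldn6 (1.96 ± 0.053), Cldn4 (1.03 ± 0.042), Cldn7 (1.20 ± 0.067) and Tjp1 (1.04 ± 0.032) rose by less. Cdh1, which encodes E-cadherin, fell by 0.31 and Epcam by 0.27.

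Pluripotency genes fell, by unequal amounts. Of 17 naive pluripotency genes 15 fell and 2 rose (median -2.14), and all 11 of 11 core genes fell (median -1.29). Nanog was at 330.0 and 339 CPM in EPS_0h and 49.1 and 49.999 in PrEdiff_0h, a change of -2.75 ± 0.032. Sox2 went from 309 and 313 to 40.2 and 38.7 CPM (-2.98 ± 0.036, adjusted p = 5.41e-225). Pou5f1, which early endoderm also keeps, went from 973 and 972 to 332 and 335 CPM (-1.54 ± 0.021). Nr0b1, a nuclear receptor of the naive state, fell by 4.24 to 5.39 and 4.96 CPM, and Nr5a2, a receptor that activates Pou5f1, by 3.98 to 4.96 and 4.34 CPM. Prdm14 (-3.37 ± 0.16), Klf2 (-2.32 ± 0.048), Klf4 (-1.56 ± 0.044), Esrrb (-2.14 ± 0.029), Tfcp2l1 (-1.87 ± 0.034), Dppa3 (-2.40 ± 0.093), Tcl1 (-2.004 ± 0.11) and Sox15 (-1.40 ± 0.095) fell. Tdh, the threonine dehydrogenase on which mouse stem cells depend, went from 631 and 621 to 81.7 and 79.2 CPM (-2.96 ± 0.027). The smallest falls of the naive list were those of Zfp42, also called Rex1 (-0.53 ± 0.039), and Dppa5a (-0.56 ± 0.019). Tbx3, a T-box factor of both naive cells and endoderm, rose instead, from 51.4 and 52.9 to 101 and 97.6 CPM (0.93 ± 0.041), and Klf5 rose by 0.29 ± 0.030. Among the core genes, Utf1 (-2.02 ± 0.034), L1td1 (-1.90 ± 0.024), Zfp281 (-1.44 ± 0.041), Tdgf1 (-1.29 ± 0.022) and Dppa4 (-1.22 ± 0.034) fell by more than Dppa2 (-0.90 ± 0.036), Sall4 (-0.86 ± 0.032), Trim71 (-0.83 ± 0.025) and the let-7 antagonist Lin28a (-0.76 ± 0.023).

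Genes of the epiblast state that follows the naive one mostly fell as well. Of 9 formative genes tested 7 fell and 1 rose (median -0.84). Foxd3, a forkhead factor of the epiblast, had 170 and 141 counts in EPS_0h and 1 and 0 in PrEdiff_0h, a size-scaled ratio of EPS_0h to PrEdiff_0h of 274 (95% exact interval 48.9 to 10873). Otx2 fell by 3.10, Zic5 by 2.05, Pou3f1 by 0.84 and Zic2 by 0.82. Sox4 rose by 0.25 ± 0.068, and this call was lost without PrEdiff_0h replicate 1 (0.16, edgeR adjusted p = 0.0779). Among 8 DNA methylation enzymes 2 rose and 5 fell, beside 37.6% and 42.9% of all genes. The demethylating oxidase Tet1 fell most, from 438 and 440.1 to 125 and 121 CPM (-1.84 ± 0.026), and the methyltransferase Dnmt3b fell by 1.03; Uhrf1 (-0.52 ± 0.023) and Dnmt1 (-0.39 ± 0.024) fell by less, and Tet3 rose by 0.41 ± 0.10.

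**Figure D2:**
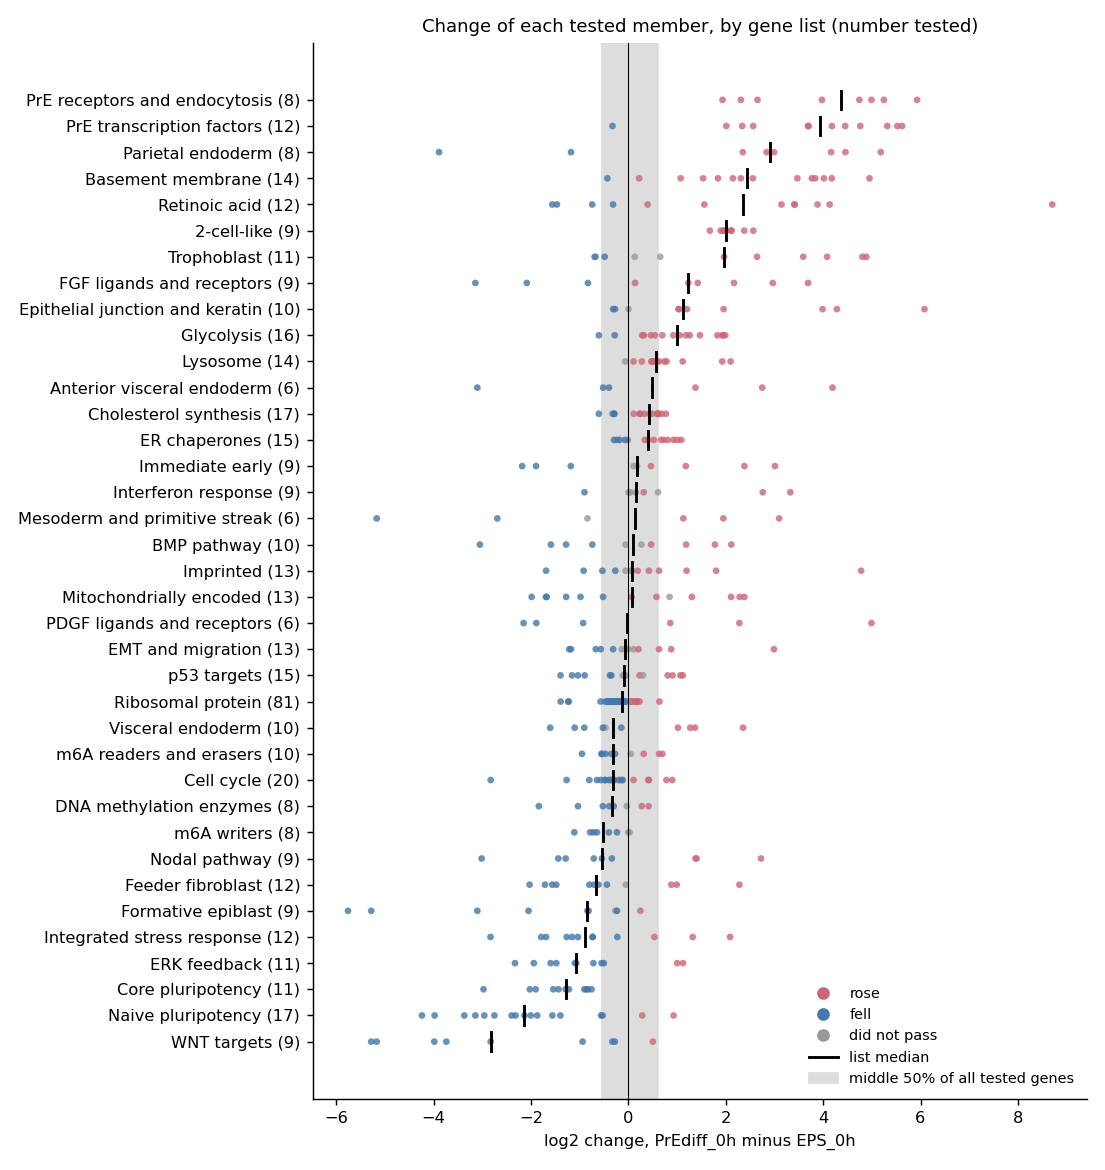
Change of each tested member (points) in log2 units, PrEdiff_0h minus EPS_0h, for each gene list except neural ectoderm, Hox and hypoxia, with its number of tested genes. Black bars are list medians and the grey band holds the middle 50% of all tested genes. The primitive endoderm, parietal endoderm, basement membrane, retinoic acid and 2-cell-like lists have medians right of the band. So do the trophoblast, FGF, epithelial and glycolysis lists. Visceral endoderm lies inside the band, and the WNT target and pluripotency lists are among those left of it.

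The main FGF ligand of the epiblast fell while a receptor of primitive endoderm rose. Fgf4, the epiblast ligand, went from 126 and 124 to 14.2 and 13.9 CPM (-3.14 ± 0.053). Fgfr2, a receptor of primitive endoderm, went from 2.94 and 3.02 to 39.4 and 40.2 CPM (3.69 ± 0.10), and Fgfr4 (2.17 ± 0.16) and Fgfr3 (1.23 ± 0.15) rose at lower levels, while Fgfr1, expressed in both lineages, changed by 0.14 ± 0.036. Of the other ligands, Fgf10 rose by 2.97 ± 0.11 and Fgf3 by 1.42 ± 0.21, and Fgf17 fell by 2.09. In all, 6 of 9 FGF genes rose and 3 fell, beside 37.6% and 42.9% of all genes. Negative feedback genes that ERK signalling switches on mostly fell: 9 of 11, beside 42.9% of all genes, with a median of -1.07. Etv5, an ETS factor downstream of FGF, went from 297 and 304 to 60.5 and 59.0 CPM (-2.33 ± 0.032), Etv4 from 260.3 and 261 to 84.6 and 87.5 (-1.60 ± 0.030), and the inhibitor Spry4 from 99.7 and 99.2 to 25.2 and 26.3 (-1.94 ± 0.050). Spry2 (-1.48 ± 0.044) and Spred1 (-1.07 ± 0.037) fell too. The phosphatases of the list did not move together, since Dusp4 (1.12 ± 0.075) and Dusp5 (1.00 ± 0.089) rose and Dusp6 fell by 0.55.

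Direct targets of WNT and beta-catenin gave the lowest list median, -2.83, with 8 of 9 falling. With no low-count filter the median over 10 genes was -1.89, above the -2.14 of the naive pluripotency list. Lef1, a transcription factor of the pathway that is also its target, was at 29.7 and 27.9 CPM in EPS_0h and 0.587 and 0.679 in PrEdiff_0h (-5.28 ± 0.15). The primitive streak factor T (brachyury) went from 32.4 and 32.2 to 0.853 and 0.731 CPM (-5.17 ± 0.14). Sp5 (-3.74 ± 0.13), the secreted WNT inhibitor Notum (-3.99 ± 0.15) and the cyclin Ccnd1, from 222 and 228 to 31.9 and 31.2 CPM (-2.83 ± 0.038), fell as well. Axin2, the usual reporter of the pathway, fell by less, from 58.5 and 61.0 to 31.9 and 30.3 CPM (-0.94 ± 0.053), and Cdx1 by 0.28. Nkd1 rose at 3.47 and 2.51 CPM (0.50 ± 0.20), a call that DESeq2 did not make (adjusted p = 0.0868) and that was lost without EPS_0h replicate 2 or PrEdiff_0h replicate 1 (0.49 and 0.26).

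Other secreted signals were mixed, beside 37.6% of all genes rising and 42.9% falling. Of 9 Nodal pathway genes 3 rose and 6 fell. The ligand Gdf3 fell from 79.8 and 78.3 to 9.65 and 9.72 CPM (-3.01 ± 0.063), the coreceptor Tdgf1 (Cripto) from 651 and 641 to 261 and 268 (-1.29 ± 0.022), and Nodal itself by 0.34. The antagonist Lefty1 rose by 1.38 ± 0.046 while its paralog Lefty2 fell by 0.71. Of 10 BMP genes 4 rose and 4 fell. The epiblast ligand Bmp4 fell from 42.3 and 42.8 to 5.65 and 4.44 CPM (-3.05 ± 0.087) and Bmp2, the ligand of visceral endoderm, rose to 1.97 and 1.99 CPM (2.12 ± 0.32). The readout genes split, with Id3 (-1.59 ± 0.083) and Id1 (-0.74 ± 0.086) falling and Id2 (1.78 ± 0.17) and Msx2 (1.19 ± 0.19) rising. Among PDGF genes the receptors rose, Pdgfra as above and Pdgfrb, which is also on the fibroblast list, by 2.28 ± 0.12, and the ligands Pdgfa, from 58.6 and 59.7 to 15.7 and 16.1 CPM (-1.89 ± 0.060), and Pdgfc (-2.15 ± 0.16) fell.

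Retinoic acid genes held the largest change among genes past a mean of 10 CPM. Retinoic acid is made from vitamin A, binds the nuclear receptors RARA, RARB and RARG, and is broken down by CYP26 enzymes, whose genes it switches on. Of 12 genes 8 rose and 4 fell, with a median of 2.35. Cyp26a1 was at 0.427 and 0.457 CPM in EPS_0h (9 and 10 counts) and 229 and 232 CPM in PrEdiff_0h (4288 and 4439 counts), a rise of 8.71 ± 0.082 or 418-fold (adjusted p = 1.61e-258). Its relative Cyp26b1, outside the list, went from 0.474 and 0.503 to 38.4 and 40.7 CPM (6.05 ± 0.14). Rarb, the receptor gene that retinoic acid induces, went from 0.712 and 0.366 to 10.7 and 11.8 CPM (4.13 ± 0.19), while Rarg fell from 136 and 135 to 43.9 and 47.6 CPM (-1.56 ± 0.040) and Rara by 0.31. Among the binding and storage proteins, Crabp2, which carries the acid to the nucleus, rose from 3.89 and 3.80 to 59.0 and 57.5 CPM (3.88 ± 0.082), while Crabp1 fell by 0.74. The reductase Dhrs3, which returns retinal to retinol, rose by 3.14 ± 0.14, and of the synthesis enzymes Rdh10 rose by 0.40 ± 0.12 and Aldh1a2 fell by 1.47. The target gene Stra8 rose from 25.996 and 28.0 to 288 and 293 CPM (3.42 ± 0.037).

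The sequences just before the start sites of Cyp26a1 and Rarb are shown because both hold the repeat to which retinoic acid receptors are known to bind, which few start sites hold. The motif searched was a pair of hexamers in the same direction, 5 bases apart, each of them being AGGTCA, or else AGTTCA, or else GGGTCA, or else GGTTCA, on either strand, in windows from 250 bases before to 50 bases after each start site. Windows came from RefSeq for GRCm38.p6, matched by gene symbol, which is not the mm39 build of the counts. Of 14127 tested genes 11137 had a window, and 6 of these (0.0539%) held the repeat, among them 2 of the 8 retinoic acid list genes with a window. Each sequence below is the 250 bases before the start site, 5′ to 3′ on the gene's strand, with the repeat in capitals. In Cyp26a1 the repeat reads on the opposite strand. It begins 32 bases before the start in Cyp26a1, chr19:37697558-37697807 on the + strand, and 53 bases before it in Rarb, chr14:16575477-16575726 on the - strand.
Cyp26a1: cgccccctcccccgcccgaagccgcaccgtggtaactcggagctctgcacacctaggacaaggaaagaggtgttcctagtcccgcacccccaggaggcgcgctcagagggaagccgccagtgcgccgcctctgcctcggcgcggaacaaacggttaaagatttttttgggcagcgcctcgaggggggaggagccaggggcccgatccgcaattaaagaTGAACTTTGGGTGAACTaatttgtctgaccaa
Rarb: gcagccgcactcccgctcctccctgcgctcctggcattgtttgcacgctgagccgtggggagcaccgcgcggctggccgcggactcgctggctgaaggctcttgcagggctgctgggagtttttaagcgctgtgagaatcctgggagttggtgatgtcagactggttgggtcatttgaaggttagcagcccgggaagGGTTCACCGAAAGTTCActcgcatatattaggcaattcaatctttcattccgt
Of the other 4 genes with the repeat, Ppbp rose by 2.96, Syndig1 fell by 1.68, and Cfap45 (0.21) and Blvrb (0.12) did not pass (edgeR adjusted p = 0.637 and 0.0533). A match is a description of these letters only.

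Glycolysis genes rose together at high levels. Of 16 genes 14 rose and 2 fell (median 0.99). The glucose transporter gene Slc2a1 went from 134 and 127 to 489.7 and 510.1 CPM (1.94 ± 0.025) and Slc2a3 from 632 and 636 to 2428 and 2423 CPM (1.94 ± 0.019). Pgk1, the phosphoglycerate kinase, was at 377 and 386 CPM in EPS_0h and 1508 and 1525 in PrEdiff_0h (1.99 ± 0.020, adjusted p = 1.06e-246). Pfkl, the liver-type phosphofructokinase, rose by 1.83 ± 0.026, Tpi1 by 1.47 ± 0.021, Hk1 by 1.26 ± 0.048, Gpi1 by 1.19 ± 0.020, Aldoa by 1.06 ± 0.019 and Ldha, which makes lactate, by 0.92 ± 0.019. Gapdh, often used as a reference gene, rose from 2178 and 2159.7 to 3485 and 3539.8 CPM (0.70 ± 0.018). Hk2 fell by 0.28 and Pdk1, the kinase that keeps pyruvate out of the mitochondrion, fell from 286 and 285 to 187 and 188 CPM (-0.61 ± 0.025). The core of the hypoxia response element, ACGTG or its reverse complement CACGT, occurs in the start-site windows of 9 of the 15 glycolysis genes with a window (60.0%) beside 28.9% of all tested genes with one. It occurs in 27.2% of the windows of genes that rose by at least 1 log2 unit and in 28.4% of those of genes that fell. Pgk1 is shown because its promoter holds 2 such cores, in capitals, 150 and 131 bases before the start, chrX:106186850-106187099 on the + strand of GRCm38.p6 (RefSeq).
Pgk1: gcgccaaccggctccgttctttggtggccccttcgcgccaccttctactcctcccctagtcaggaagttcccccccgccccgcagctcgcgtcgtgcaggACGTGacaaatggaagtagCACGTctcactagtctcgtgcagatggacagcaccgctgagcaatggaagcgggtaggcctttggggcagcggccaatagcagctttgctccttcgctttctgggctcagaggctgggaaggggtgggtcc
By comparison, GATA sites (GATAA or else GATAG, preceded by A or T, either strand) occur in 23.5% of the windows of genes that rose by at least 1 log2 unit, 24.6% of those that fell and 21.7% of all.

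**Figure D3:**
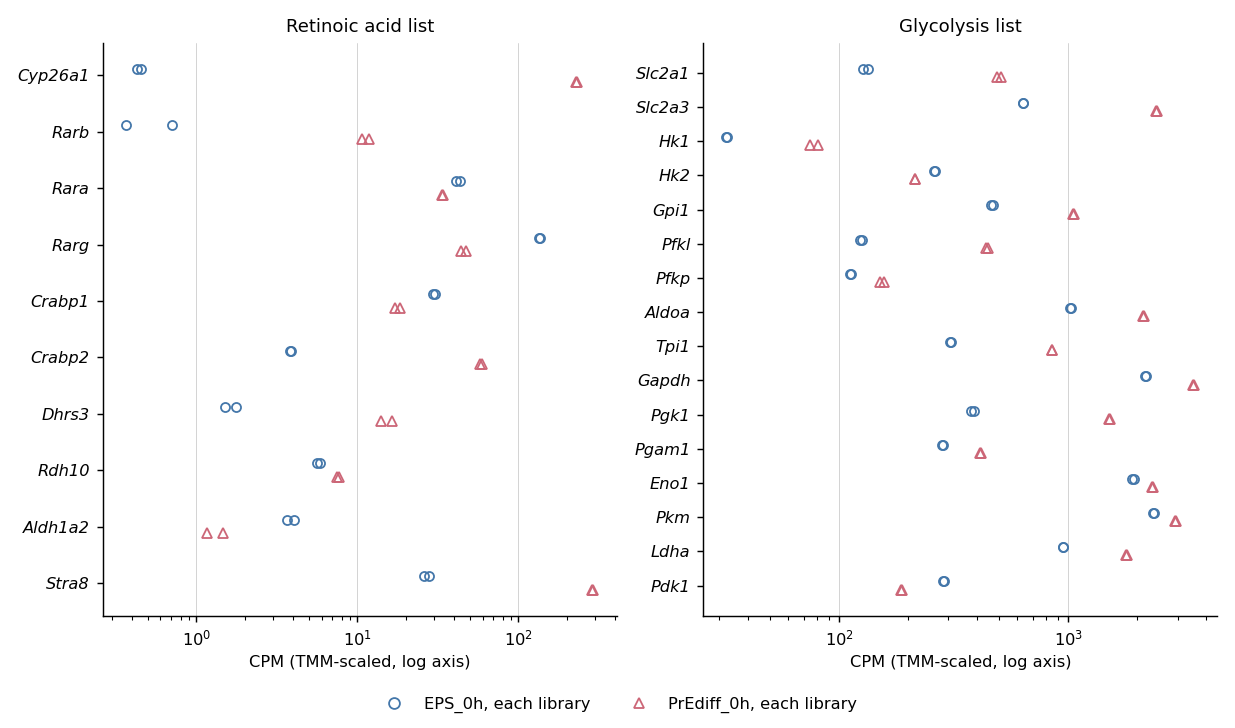
Level of retinoic acid genes (left) and glycolysis genes (right) in each library, in TMM-scaled CPM on a log axis, with circles for EPS_0h and triangles for PrEdiff_0h. Cyp26a1 spans from under 1 to over 200 CPM, and among the glycolysis genes only Hk2 and Pdk1 were lower in PrEdiff_0h.

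Markers of other cell types moved as well, most of them at low levels. Over all tested genes 80.5% passed, 37.6% rising and 42.9% falling, so the number of calls in a short list carries little weight by itself. All 9 of 9 tested 2-cell-like genes rose, with a median of 2.01; these mark a rare state of stem cell cultures that resembles the 2-cell embryo. Zscan4c went from 3.27 and 2.20 to 10.2 and 11.8 CPM (1.97 ± 0.14), Zscan4d from 3.23 and 3.11 to 10.4 and 10.3 (1.67 ± 0.13) and Usp17lc from 0.285 and 0.457 to 2.99 and 2.51 (2.57 ± 0.29). Members of these families are near-identical copies that share reads, so their single values are uncertain. Of 11 trophoblast genes tested 6 rose, 2 fell and 3 did not pass: Krt7 rose to 10.9 and 11.9 CPM (4.89 ± 0.21), Esx1 to 20.6 and 21.6 (3.59 ± 0.13) and Gata2 to 4.91 and 3.24 (2.64 ± 0.25), while Tfap2c fell by 0.69 and Tead4 by 0.49. Hand1 had 2 and 1 counts in EPS_0h and 103 and 83 in PrEdiff_0h, a size-scaled ratio of PrEdiff_0h to EPS_0h of 70.3 (95% exact interval 23.7 to 344). The defining factors Cdx2, at 1.57 and 1.74 CPM against 1.76 and 1.88 (0.13, adjusted p = 0.613), and Gata3 (0.65, adjusted p = 0.117) did not pass, and Elf5 had 0 and 1 counts in EPS_0h against 2 and 0 in PrEdiff_0h. Of 3 neural genes tested 2 rose and 1 fell, and of 6 mesoderm genes 3 rose and 2 fell. Sox1 fell by 1.77, Nes rose by 0.48 ± 0.078, Kdr rose by 1.95 ± 0.26 to 2.61 and 2.87 CPM and Foxf1 had 2 and 1 counts against 27 and 27, a ratio of 20.4 (95% exact interval 6.62 to 102) in the same sense. Fibroblast genes, as feeder cells would carry, fell in 8 of 12 cases and rose in 3 (median -0.66). The 12 together made 0.0277% and 0.0270% of counts in EPS_0h and 0.0193% and 0.0189% in PrEdiff_0h, none of them was at 0, and Col1a2 fell from 47.2 and 52.0 to 17.1 and 18.3 CPM. The part of such cells in other results was not tested.

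Lists of cell maintenance, growth and stress had medians under 1 log2 unit in size, though some held larger changes. By at least 1 log2 unit, 2 of 12 integrated stress response genes rose and 6 fell. Of 13 mitochondrial genes 4 rose and 4 fell by that much, beside 27.1% of all genes in either direction. In the lysosome list 13 of 14 genes rose and 0 fell (median 0.58), beside 37.6% of all genes rising. Its risers included the cathepsins Ctsc, from 23.3 and 27.5 to 95.1 and 99.0 CPM (1.93 ± 0.049), and Ctsb (1.12 ± 0.025). In cholesterol synthesis 13 of 17 rose, none by 1 log2 unit, with Cyp51 (0.77 ± 0.028) and Hmgcs1 (0.60 ± 0.022) as examples. Among endoplasmic reticulum chaperones 9 of 15 rose and 4 fell with TMM, 12 rose and 0 fell with library totals and 11 and 0 with ribosomal scaling. The risers included Hsp90b1 (0.81 ± 0.019), Pdia6 (0.93 ± 0.022) and Calr (0.67 ± 0.020). Of 20 cell cycle genes 15 fell, Ccnd1 and Ccne1 (-1.27 ± 0.028) most, and 5 rose, among them Mki67 (0.78 ± 0.025) and the inhibitor Cdkn1b (0.90 ± 0.057). The share of falls over all genes was 42.9%. Library totals gave the cell cycle list 12 falls and 6 rises, with a median of -0.14 in place of -0.32. Falls of 1 log2 unit or more were few in it, 2 in number, where the all-gene share was 10.6%. Genes of the integrated stress response fell in 9 of 12 cases, with Atf4 going from 459.6 and 479 to 215 and 206 CPM (-1.16 ± 0.024), Psat1 falling by 1.27 and Trib3 by 1.69, while Ddit4 rose by 2.09 ± 0.035 and Ddit3 by 1.32 ± 0.088. The p53 targets were divided, 5 up and 7 down of 15, with Cdkn1a (p21) at -1.16 ± 0.048 and Pmaip1 at -1.39 ± 0.056. Myc fell from 77.5 and 73.0 to 16.7 and 16.3 CPM (-2.18 ± 0.059). Of 81 ribosomal protein genes 12 rose and 57 fell with TMM (median -0.13), but 45 rose and 23 fell with library totals (median 0.053), so the list has no direction apart from the scaling. Genes encoded in the mitochondrial genome made 2.82% and 2.94% of counts in EPS_0h and 2.13% and 2.04% in PrEdiff_0h, and of 13 such genes 6 rose and 6 fell, with mt-Cytb at 4879 and 5209 against 1372 and 1174 CPM (-1.99 ± 0.10). Copies of these genes in the nuclear genome can share their reads. Smaller lists were divided: 7 rises and 4 falls among 13 imprinted genes, 4 and 5 among 13 genes of migration, 4 and 3 among 9 immediate early genes and 3 and 1 among 9 interferon genes.

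The series title concerns N6-methyladenosine (m6A), a methyl mark on mRNA. Of 8 genes of the methylating complex 6 fell and 0 rose (median -0.52), where 80.5% of all genes passed and 42.9% fell. The catalytic subunit gene Mettl3 went from 41.1 and 39.4 to 25.2 and 26.2 CPM (-0.64 ± 0.060), the adaptor Wtap from 135 and 132 to 76.4 and 78.2 (-0.79 ± 0.036) and Rbm15b from 51.9 and 51.2 to 23.9 and 23.7 (-1.11 ± 0.058). Mettl14, the partner of Mettl3, was at 49.4 and 46.8 CPM in EPS_0h and 48.4 and 47.8 in PrEdiff_0h and did not pass with TMM (adjusted p = 0.988), but was higher in PrEdiff_0h with library totals (0.18, edgeR adjusted p = 0.000411) and with ribosomal scaling (0.11, 0.0369). Rbm15, at 23.0 and 25.6 CPM in EPS_0h and 25.5 and 24.1 in PrEdiff_0h, did not pass with TMM (0.026, adjusted p = 0.726) and was higher with library totals (0.21, 0.00387). Virma fell by 0.23, a call that was lost with library totals (-0.055, 0.222). Of the readers and erasers 3 of 10 rose and 6 fell: the reader Ythdf2 fell by 0.95, Igf2bp1 by 0.55 and Igf2bp3 by 0.55, while Igf2bp2 rose by 0.70 ± 0.038 and the eraser Alkbh5 by 0.63 ± 0.034.

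By size of change alone, the genes with a mean of at least 10 CPM that rose most after Cyp26a1 were Fbp2, the muscle fructose bisphosphatase, from 0.332 and 0.595 to 86.9 and 97.0 CPM (7.32 ± 0.11), Krt19, Cyp26b1, the homeodomain factor Meis1, from 0.285 and 0.640 to 36.4 and 34.9 (5.96 ± 0.14), Cubn, and the secreted chaperone Clu, from 4.60 and 4.53 to 267 and 261 (5.82 ± 0.053). Sox7, Hoxb1 (5.61 ± 0.10), the mitochondrial subunit Ndufa4l2 (5.59 ± 0.17), the muscle phosphoglycerate mutase Pgam2 (5.56 ± 0.11) and the neuregulin Nrg2 (5.53 ± 0.17) followed. Among those that fell most were Lef1, the inflammasome gene Nlrc4, from 29.8 and 29.7 to 0.640 and 0.731 CPM (-5.23 ± 0.14), Kirrel2 (-5.21 ± 0.14), Enox1 (-5.21 ± 0.11), T, and the slit diaphragm gene Nphs1, from 58.4 and 59.4 to 1.39 and 1.78 (-5.12 ± 0.10). The netrin gene Ntn1 went from 172 and 179.9 to 6.72 and 8.78 CPM (-4.49 ± 0.057), and Nr0b1, Nr5a2, Sp5 and the RNA sensor Ddx58 (-3.67 ± 0.076) followed. A further 99 genes had no counts in either EPS_0h library and more than 6 in PrEdiff_0h, and 27 showed the reverse. Pyy, a gut hormone gene chosen after its values were seen, had 135 and 149 counts in PrEdiff_0h and was at least 53.6-fold higher, taking 3 counts per EPS_0h library as the floor.

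The same contrast was taken at 1 h of actinomycin D, in 4 libraries outside the 0 h contrast that shared its fit, filter and estimate of spread. It gave 11439 called genes (81.0%). Of the 2329 genes that had risen by at least 1 log2 unit at 0 h, 2238 (96.1%) were also higher at 1 h, 0 were lower and 91 did not pass. Of the 1499 that had fallen, 1414 (94.3%) were lower at 1 h and 3 were higher. Over all genes 40.9% were higher and 40.0% lower at 1 h; with ribosomal scaling, which moved the 1 h median gene to 0.47, 8714 were higher and 3110 lower. Gata6 differed by 4.58 at 1 h beside 4.76 at 0 h, Cyp26a1 by 8.10 beside 8.71, Sox17 by 3.79 beside 4.45, and Nanog by -2.79 beside -2.75. The 1 h libraries were made after transcription was blocked, so these values also carry any difference in decay over that hour.

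The sorted contrast sets 2 fractions of induced cultures against each other, whereas the comparison above sets induced cells against EPSCs. The titles of these induced cells name no sorted fraction, so they are taken as unsorted and called the culture. Their count columns are named PrE2_0h and were matched to PrEdiff_0h by state, time and replicate number. PrE-E against EPI-E gave 7172 calls among 12423 genes tested (57.7%), 28.3% higher and 29.5% lower in PrE-E. Of 1481 genes that rose by at least 1 log2 unit in the culture and were tested in both tables, 778 (52.5%) were higher in PrE-E, 190 (12.8%) were lower and 513 did not pass. Of 1262 genes that fell, 758 (60.1%) were lower in PrE-E and 73 (5.78%) higher. The endoderm factors had larger differences between the fractions than in the culture. The difference between the contrasts was negative and passed for 11 of 12 genes, in a test of that difference in which 7281 of 14000 genes passed (52.0%), 24.7% positive and 27.3% negative. That split depends on the scaling: it was 4261 positive and 2991 negative with library totals, and 2891 and 4709 with ribosomal scaling. Sox17 was at 0 and 0 CPM in EPI-E and 134 and 161 in PrE-E, Gata4 at 0.928 and 0 in EPI-E and 268 and 291 in PrE-E, and Foxq1 at 0 and 0.0761 in EPI-E and 90.6 and 81.7 in PrE-E. Cubn was at 3.98 and 3.42 CPM in EPI-E and 5341 and 5397 in PrE-E, a difference of 10.44 beside 5.93 in the culture (difference of the contrasts -4.47 ± 0.10, edgeR adjusted p = 7.34e-09). The sorted CPM and the contrast of the fractions were normalised on their own table, while the test of the difference scaled culture and sorted libraries together. Table, library preparation and group cannot be told apart in this test. Counts of list members in this test use TMM scaling alone. The test shared the estimate of spread over culture and sorted libraries. Replicates of the sorted fractions were further apart (chi-square per degree of freedom 7.47 in EPI-E and 9.90 in PrE-E) than those of EPS_0h (1.19) and PrEdiff_0h (1.21). Its SE, adjusted p and number of calls may therefore be overconfident for the sorted part.

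The 2-cell-like, retinoic acid and glycolysis lists differed between the fractions in another way than in the culture. All 5 2-cell-like genes tested in the sorted table were lower in PrE-E, with Zscan4c at 27.2 and 22.7 CPM in EPI-E and 0 and 0 in PrE-E. Of the retinoic acid genes 3 were higher and 7 lower in PrE-E, and the difference of the contrasts was positive and passed for 9 of 12. Crabp2, which rose in the culture, was at 12.7 and 11.1 CPM in EPI-E and 1.00 and 0.644 in PrE-E (difference of the contrasts 7.65 ± 0.28, edgeR adjusted p = 8.75e-08). In the sorted contrast alone the SE of Crabp2 was larger, 0.50. Cyp26a1, in contrast, was higher in PrE-E as well, at 1.19 and 1.45 against 176 and 154 CPM (6.83). Of the glycolysis genes 4 were higher, 8 were lower and 4 did not pass in PrE-E. Their summed level was 4530 and 4450.1 CPM in EPI-E and 4796 and 4782 in PrE-E, and the difference of the contrasts was positive and passed for 13 of 16; Slc2a1 was at 118 and 100.04 CPM in EPI-E and 46.9 and 49.9 in PrE-E. The lysosome and chaperone lists showed the reverse, with a larger difference between fractions: 12 of 14 and 14 of 15 differences of the contrasts were negative and passed. Of the naive pluripotency genes 5 were higher and 10 lower in PrE-E, and of the core genes 1 was higher and 10 lower. Tdh and Klf4 were among the exceptions: Tdh fell in the culture but was at 43.1 and 45.0 CPM in EPI-E and 71.4 and 73.5 in PrE-E, and Klf4 at 38.0 and 26.2 in EPI-E and 43.0 and 49.4 in PrE-E. Esrrb (75.2 and 85.3 against 0.463 and 0.580 CPM) and Tdgf1 (281 and 289 against 1.08 and 1.87 CPM) were low in PrE-E, and in the induced culture Esrrb was at 89.0 and 89.3 CPM and Tdgf1 at 261 and 268, on a scale set in another table. With both changes at 1 log2 unit or more and the difference passing, 180 genes rose in the culture and were lower in PrE-E, and 46 fell in the culture and were higher in PrE-E. At that size 37.5% of all genes tested differed between the fractions, 19.6% higher and 17.8% lower in PrE-E.

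**Figure D4:**
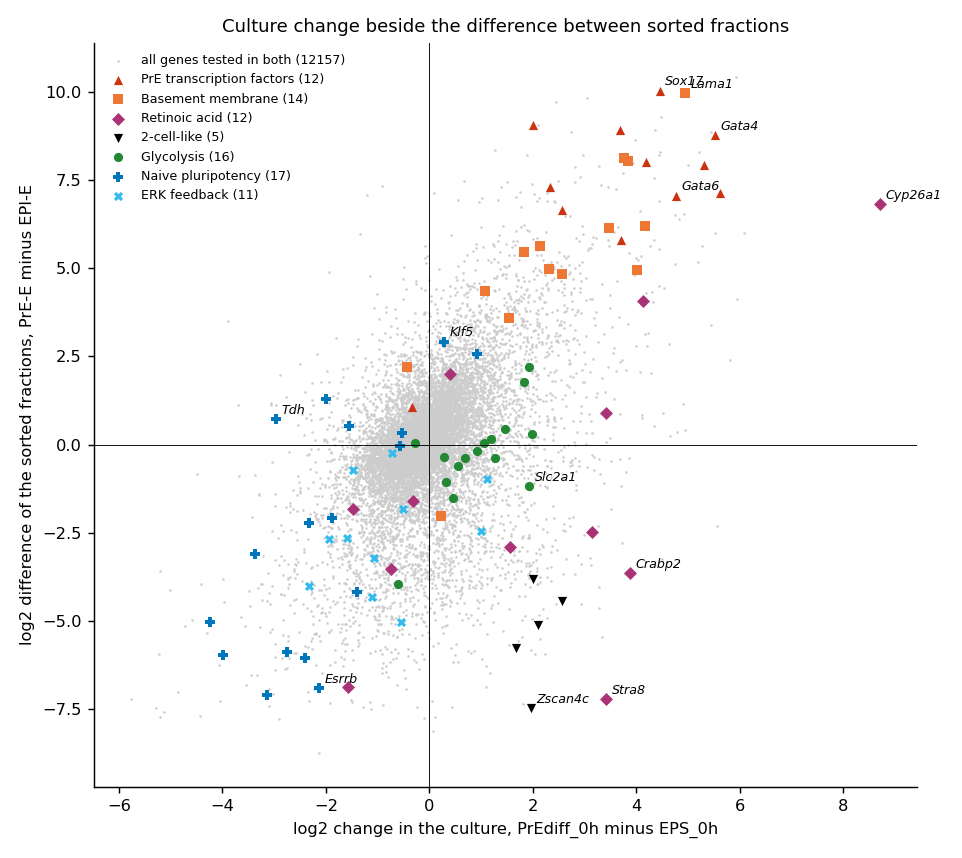
For each gene tested in both tables, the log2 change in the culture (PrEdiff_0h minus EPS_0h, horizontal) against the log2 difference of the sorted fractions (PrE-E minus EPI-E, vertical), with 7 lists marked. Endoderm and basement membrane genes lie above 0 on both axes except Eomes, Nid2 and Lama5, while the 2-cell-like genes, Crabp2 and Stra8 lie at the lower right.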

How the data were processed

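RNA was extracted with TRIzol and sequenced on an Illumina instrument after preparation with a stranded SMARTer or a VAHTS total RNA kit, per the labels' protocols; the kit of each library is not given in the sources used here. The authors' tools, per the submitters' processing notes, were STAR 2.7.11b on mm39, Subread, DESeq2, Trim Galore and FastQC 0.12.1. Annotation and strand setting are not given, so reads of antisense or overlapping genes may be mixed, as may those of near-identical copies. The tables deposited by the authors hold raw counts per gene (21812 genes, 0 blank names, 0 columns of unknown sample).

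The deposited counts entered edgeR 4.0.16 (R 4.3.3) with TMM scaling, filterByExpr (count of 10, total of 15), robust quasi-likelihood fit, prior count 2, Benjamini-Hochberg adjustment over all tested genes, threshold 0.05. All 16 actinomycin D libraries entered with a mean for each of 8 state and time groups, so that they share the estimate of spread. The contrast took the 4 libraries at 0 h. The SE given is the size of the log2 change divided by the square root of the test's F statistic. It rests on the shared spread and the prior count, and means least where a group is near 0. The 4 sorted libraries were fitted on their own table (12788803 to 15973967 counts), and the difference of the contrasts in 8 libraries joined by symbol. The floor is 3 counts per library, and intervals are exact at 95%; both cover counting error only. The members, the 38 gene lists and the tests were chosen with earlier results of these data known; the Hox and hypoxia lists were added after the values were seen. Named genes are the 12 largest rises and 12 largest falls (mean of at least 10 CPM, groups not overlapping, no predicted locus name), up to 4 members per list by adjusted p, all members of the endoderm factor, receptor and pluripotency lists, and the 4 largest differences of the contrasts each way; further list members are named to describe their list. Some genes named by the rule are not reported here. Same-numbered replicates did not deviate together (r = -0.013 and -0.0059 across genes), and the labels give the numbers no meaning. On simulated counts for the 0 h contrast the fit recovered 75.8% of changes of 0.5, 88.1% of 1 and 97.0% of 2 log2 units, with 14 false calls among 13927 unchanged genes. There 13927 of 14127 genes were unchanged, whereas 80.5% passed in the data, so the simulation does not cover errors of scaling. Alternatives were RLE factors, library totals, scaling to ribosomal protein genes, DESeq2 1.42.0, no filter, a filter of 1 CPM, the replicate block, the 4 libraries alone, other minimums and leaving out each library.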

Additional observations from a re-analysis of the deposited data

Results flagged for a closer look

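The test of the difference between the culture contrast (PrEdiff_0h against EPS_0h) and the sorted contrast (PrE-E against EPI-E) picked out the 4 largest positive and 4 largest negative genes by the rule for named genes. The values are signed: a positive one means that PrEdiff_0h minus EPS_0h was above PrE-E minus EPI-E. It does not mean that the culture change was larger in size. In most of these genes a sorted group was at or close to 0, so the fitted difference depends on the prior count and is not a bound; the CPM values are the measurement. Stra8, a retinoic acid target, had a difference of 11.09 (edgeR adjusted p = 1.49e-08): it was at 19.8 and 21.8 CPM in EPI-E and 0 and 0 in PrE-E, and it rose in the culture. Hoxb1 had 8.24 (adjusted p = 8.22e-04), at 0.759 and 1.69 CPM in EPS_0h, 67.0 and 64.2 in PrEdiff_0h, 0.133 and 0.989 in EPI-E and 0 and 0 in PrE-E. Fam171b (8.504, adjusted p = 1.40e-07) and Meioc (8.33, adjusted p = 3.99e-06) had smaller differences in the culture. Fam171b differed there by 0.064 (adjusted p = 0.433, and 0.24, adjusted p = 0.00217, with library totals) and was at 60.3 and 57.7 CPM in EPI-E and 0 and 0.129 in PrE-E. Meioc rose there by 0.44, a call that was lost without EPS_0h replicate 2 (0.27, adjusted p = 0.0720), and was at 22.0 and 26.9 CPM in EPI-E and 0 and 0 in PrE-E.

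Soat2, which esterifies cholesterol in visceral endoderm, had -8.37 (adjusted p = 5.42e-07): it fell in the culture from 1.99 and 2.15 to 1.01 and 1.10 CPM and was at 0.199 and 0.0761 in EPI-E and 48.7 and 42.7 in PrE-E. Fst had -7.34 (adjusted p = 7.36e-08), falling in the culture while it was at 4.51 and 5.02 CPM in EPI-E and 53.7 and 57.3 in PrE-E. S100g, a calcium-binding protein of absorptive epithelia, had -7.64 (adjusted p = 2.18e-05), reaching 2.51 and 2.30 CPM in PrEdiff_0h and 112 and 123 in PrE-E. Cited1 had -7.40 (adjusted p = 1.87e-06), reaching 6.45 and 6.79 CPM in PrEdiff_0h and 75.3 and 74.4 in PrE-E. Table, library preparation and group coincide between the contrasts and cannot be told apart. The spread was shared with the culture libraries, whose replicates were closer together, so these adjusted p may be too small.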

How the results depend on the processing

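The call counts stayed within 1.5 times under each alternative fit: 11376 genes at 0 h became 10808 to 10920 without 1 library and 11137 with the 4 libraries alone, and 3828 genes past 1 log2 unit became 3886 to 3914 without 1 library. A minimum of 0.5 log2 units gave 7437 genes and a minimum of 2 gave 1167. Leaving out a library gave 10897 to 11009 calls at 1 h, 6186 to 6831 between the sorted fractions and 5404 to 8059 for the difference of the contrasts. The shared replicate numbers have no stated meaning, and same-numbered samples did not deviate together. The replicate block gave 11382 calls in place of 11376, 11447 at 1 h, 6746 between the fractions and 6769 for the difference of the contrasts. Of the 0 h calls, 88.8% kept their direction and passed with library totals, the lowest share of any setting, and 11373 did with the replicate block. The fractions' split became 4402 higher and 2801 lower with ribosomal scaling, and the 1 h split 7267 and 4358 with library totals.

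List medians near 0 turned with the scaling: PDGF to 0.11 and 0.032, p53 targets to 0.096 and 0.025, and migration to 0.10 and 0.039 (library totals and ribosomal scaling), and ribosomal protein genes to 0.053 (library totals). Other settings turned visceral endoderm (0.57 with no low-count filter), mesoderm (-0.36 with no low-count filter, -0.041 without EPS_0h replicate 2, -0.21 without PrEdiff_0h replicate 2), mitochondrial genes (-0.21 with the 1 CPM filter, -0.16 with the 4 libraries alone), PDGF (0.46 without EPS_0h replicate 2, 0.92 with the 4 libraries alone) and migration (0.046 without EPS_0h replicate 1). Of 300 genes recomputed, 286 kept sign and call under every setting. Many of the 300 were chosen by size of change or adjusted p in the same fit, so this does not describe the calls in general. Apoe turned to 0.035 with library totals. Mettl14, near 0 with TMM, was at 0.18 with library totals, 0.11 with ribosomal scaling, 0.015 with the 1 CPM filter, 0.062 with the 4 libraries alone, 0.032 without EPS_0h replicate 1 and 0.0038 without PrEdiff_0h replicate 2, and leaving out 1 library gave -0.043 to 0.032. Rbm15 was at -0.053 without EPS_0h replicate 1 and -0.018 without PrEdiff_0h replicate 1. The cause of these turns was not tested. Genes under about 3 counts per library cannot be compared at this depth.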

Other observations

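The Hox genes, a group chosen after the values were seen, rose together in the culture. Hox genes encode homeodomain factors that give embryonic tissues their position along the body axis and are usually silent in stem cells. Of 39 Hox genes 30 could be tested, of which 27 rose, 0 fell and 3 did not pass (median 3.20 beside -0.049 over all genes, where 37.6% rose). With no low-count filter 28 of 39 rose, 0 fell and the median was 2.23. Several tested genes had few counts in EPS_0h, among them Hoxb5 (4 over both libraries) and Hoxb6 (5). Such genes passed the filter through groups where they were higher, which leaves little room for a fall. Their summed level was 22.6 and 23.1 CPM in EPS_0h and 318 and 310 CPM in PrEdiff_0h. Beside Hoxb1, Hoxb4 went from 0.806 and 0.640 to 19.9 and 21.1 CPM (4.63 ± 0.15), Hoxa5 from 0.427 and 0.183 to 15.3 and 15.0 (5.21 ± 0.19), Hoxb9 from 1.47 and 0.961 to 13.9 and 13.9 (3.41 ± 0.15) and Hoxb8 from 3 and 1 counts to 216 and 194. In the sorted fractions 9 Hox genes could be tested, of which 3 were higher in PrE-E, 0 were lower and 6 did not pass. Hoxb4 was at 0.331 and 1.29 CPM in EPI-E and 6.09 and 7.22 in PrE-E (2.85 ± 0.70, edgeR adjusted p = 0.00383). Hoxa5 and Hoxb9 had too few counts to test there: Hoxa5 was at 1.79 and 0.533 CPM in EPI-E and 0.0771 and 0.322 in PrE-E, and Hoxb9 at 1.33 and 0 in EPI-E and 0 and 0.129 in PrE-E.

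A list of 20 hypoxia-induced genes, also written after the values were seen and sharing 2 genes with the basement membrane list and 1 with the stress response list, gave 18 rises and 2 falls (median 3.11). Over all genes 37.6% rose and 42.9% fell. Bnip3, a mitophagy receptor, went from 26.4 and 25.6 to 339 and 337 CPM (3.70 ± 0.036), and the lactate exporter Slc16a3 from 18.9 and 19.99 to 148 and 148 (2.92 ± 0.046). Pfkfb3, which drives glycolysis, rose by 3.29 ± 0.065, the hormone gene Adm by 3.87 ± 0.19, Eno2 by 3.70 ± 0.11 and Vegfa by 2.08 ± 0.040. Between the sorted fractions 7 of 18 were higher and 7 lower in PrE-E, with Bnip3 at 114 and 118 CPM in EPI-E and 86.4 and 89.7 in PrE-E. The oxygen level of the cultures is not given in the sources used here.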
